A study of Mus musculus with 6 samples.

Results

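The Nanog, Dppa3 and Gdf3 locus is a stretch of mouse chromosome 6 that holds 3 genes read as markers of pluripotency. Its open chromatin was followed here by ATAC-seq, which cuts accessible DNA with a transposase and counts the resulting tags. Every peak overlapping chr6:122560000-122760000 (GRCm39), a window of 200 kb, was taken from the peak list of each of 6 libraries, and peaks that shared at least 1 base were joined into regions. The window held 61 regions of 259191 in the whole series and of 15876 on chromosome 6. The rule uses position only.

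All libraries came from E14TG2a, a mouse embryonic stem cell line, grown with 15% fetal bovine serum, 1000 U/ml of the cytokine LIF, 1 µM of the MEK inhibitor PD0325901 and 3 µM of the GSK3 inhibitor CHIR99021, and spike-in nuclei (10 µl) were added to every sample. Each of 3 genotypes was measured in 2 libraries. One was WT, one lacked Alkbh5 (KO), and the one labelled Alkbh5 del-cIDR carries a deletion of the stretch that the labels call cIDR. ALKBH5 is an enzyme that removes the m6A mark from RNA. The labels do not say that the libraries of a genotype came from separate cultures, nor how many clones stand behind a genotype, so the spread between libraries may be technical. With 2 libraries against 2, an exact two-sided permutation test cannot give a p below 0.333, so the differences below are set against the spread of the libraries and against the rest of chromosome 6.

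Nanog encodes a homeodomain transcription factor that keeps embryonic stem cells in self-renewal, together with Oct4 and Sox2. Dppa3, also called Stella, encodes a maternal and germ-cell protein that protects DNA methylation in the zygote and is high in naive stem cells. Gdf3 encodes a secreted ligand of the TGF-beta family. In the RefSeq gene order, Gdf3, Dppa3 and Nanog follow each other, with Apobec1, which encodes an RNA-editing cytidine deaminase, before them and Slc2a3, a glucose transporter gene, after them. The genes used for this order are annotated on GRCm38.p6 and the peaks lie on GRCm39, so single regions were not assigned to the start or an enhancer of a gene.

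The RefSeq promoter table (GRCm38.p6) matched 1 of the 3 genes, Nanog, which has 2 entries there. Only 1 entry is shown, and distances are counted from its start. The 250 bases before its start, chr6:122707239-122707488 on the plus strand of that build, are shown because they carry the best known control element of the locus, where Oct4 and Sox2 bind side by side.
Nanog: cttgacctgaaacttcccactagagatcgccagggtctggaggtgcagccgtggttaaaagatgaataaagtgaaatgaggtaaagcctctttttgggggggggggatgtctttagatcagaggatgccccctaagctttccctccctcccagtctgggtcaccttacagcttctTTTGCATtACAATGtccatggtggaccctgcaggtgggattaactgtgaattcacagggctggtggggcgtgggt
The capitals mark TTTGCAT, a POU octamer shortened by 1 base, which starts 75 bases before the gene start, and ACAATG, a SOX site shortened by 1 base, which starts 67 bases before it. The matches do not overlap and are 1 base apart. Both strands of 32851 RefSeq promoters of the same length were searched, and 4.12% held TTTGCAT while 10.7% held ACAATG. The shortened forms were chosen after the sequence had been seen. The full octamer ATGCAAAT, in 1.60% of promoters, and the longer SOX form AACAATG, in 3.29%, are not spelled in this window. The letters TCAAGGTCA for ESRRB (0.387% of promoters), CCACACCC for KLF factors (3.20%) and TTCCNGGAA for STAT factors (0.913%) are not there either. AGGGGGC, part of the CTCF motif, has 1 match on the minus strand, 124 bases before the start, and occurs in 9.43% of promoters. A match is a description of letters and not a binding site.

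Across assembled chromosomes, 193769 and 184769 peaks were listed in WT, against 164516 and 150560 in the KO and 157817 and 155017 in the del-cIDR libraries. Peak heights, in tags at the summit, were solved from the deposited fold and p-value columns, since the lists hold no read totals. A height carries counting error, so that 9 tags have a 95% exact Poisson interval of 4.12 to 17.1 and 456 tags one of 415.1 to 499.8. The interval covers counting error only. The cell mixture was not resolved: fewer open cells and less signal per cell cannot be told apart.

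The number of peaks at the locus was close in all genotypes. WT had 48 and 49 peaks, KO 49 and 46, and del-cIDR 44 and 46, or 48.5 ± 0.71, 47.5 ± 2.12 and 45.0 ± 1.41 (mean ± SD, n = 2 each). The counts of WT and KO overlapped, and both del-cIDR libraries had fewer peaks than both WT libraries. The peaks covered 17407 and 17828 bases in WT, against 20113 and 17725 in the KO and 18073 and 17415 in the del-cIDR libraries, so covered length overlapped between WT and both mutants.

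Of the 61 regions, 35 (57.4%) were called in all 6 libraries, against 37.1% of the other regions of chromosome 6. Another 9 (14.8%) were called in 1 library, against 26.5% elsewhere on the chromosome. KO replicate 1 alone called 3 of these, WT replicates 1 and 2 and del-cIDR replicate 2 alone called 2 each, and KO replicate 2 and del-cIDR replicate 1 none. When chromosome 6 was cut into windows of the length of the locus and aligned with it, 682 windows held at least 1 region called in all libraries, with a median of 7, and the locus was the only one to reach 35. It was thus the most densely open of these 682 windows by this count. Other placements of a window of this length were not examined.

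**Figure D1:**
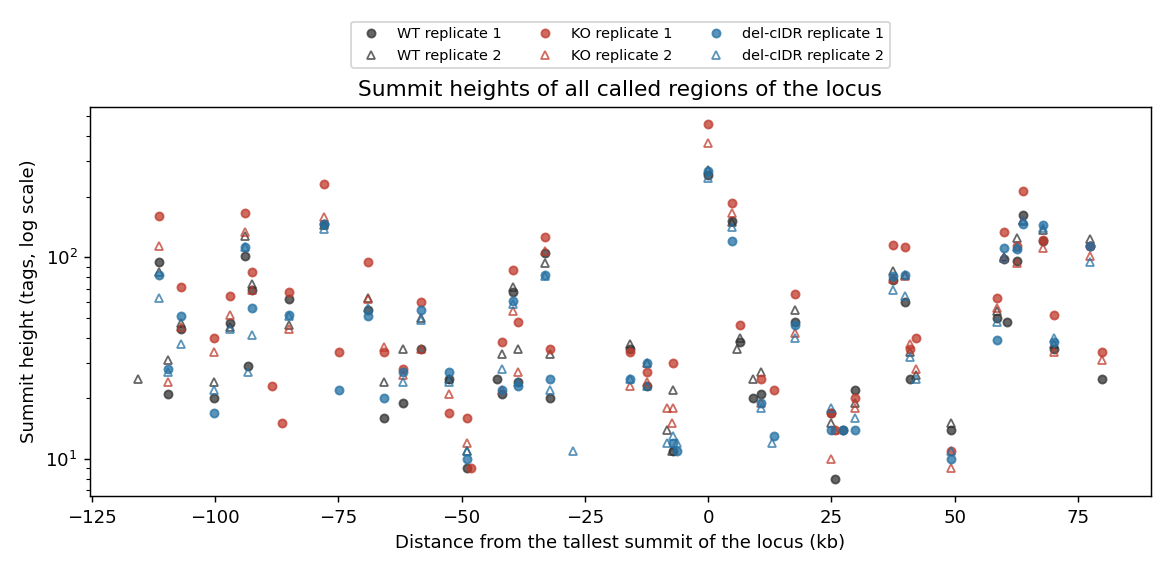
Summit height in tags (log axis) of every called region of the locus against its distance in kb from the tallest summit; black is WT, red KO and blue del-cIDR, with circles for replicate 1 and triangles for replicate 2. The tallest summit stands at 256 and 270 tags in WT and at 456 and 371 in KO, and several of the low regions lack the symbols of some libraries.

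The regions of the locus were tall but stood on a high local background. Over the 35 regions called in all libraries, the median of the mean height was 51.7 tags, against 31.5 over the other 5870 such regions of chromosome 6. The median local background was 5.06 tags against 2.08. The deposited fold, which divides height by that background, therefore placed the same regions lower: their median percentile among the 99107 regions called in all libraries of the series was 70.3 by height and 25.6 by fold, while the rest of chromosome 6 stood at 47.7 and 47.5.

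Of the 35 regions, 28 (80%) ranked lower by fold than by height, against 39.4% of the other chromosome 6 regions. By height 9 of them (25.7%) had a mean percentile in the top 10% of the scale, against 9.17% of the chromosome, and by fold 1 had, against 8.60% of the chromosome. Fold percentiles within each library's own full list were also taken, using the peak of highest fold in each region. The median over the locus regions called in a library was 40.6 and 41.4 in WT, against 38.3 and 41.7 in the KO and 36.1 and 36.5 in the del-cIDR libraries. The WT and KO values overlapped, and both del-cIDR values were below them. For all regions of chromosome 6 these medians ran from 48.8 to 51.7.

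**Figure D2:**
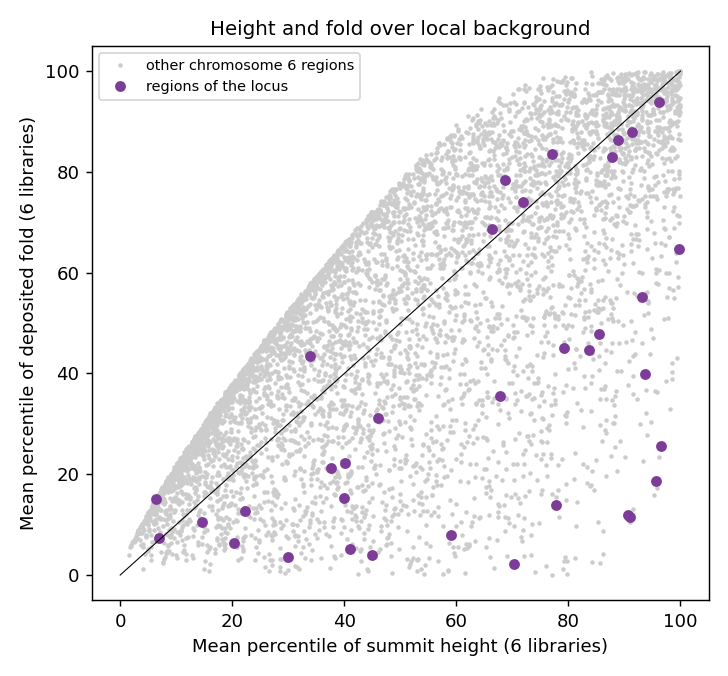
Mean percentile of the deposited fold against mean percentile of summit height, both over 6 libraries and among regions called in all of them; purple points are the 35 regions of the locus and grey points the other 5870 regions of chromosome 6. Of the purple points, 28 lie below the diagonal.

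Chromosome 6 as a whole stood higher in KO than in WT, which sets the level against which the locus is read. Relative to 16 reference autosomes (all but 6, 8 and 11), the median height of chromosome 6 on the log2 scale was -0.09 ± 0.01 in WT, 0.29 ± 0.02 for the KO and -0.22 ± 0.03 for the del-cIDR libraries (SD, n = 2 each). The KO value was 0.38 higher than WT and the del-cIDR value differed from WT by -0.13, each with an exact permutation p of 0.333, the smallest the design allows. The libraries did not overlap in either comparison. Chromosome 6 also held 6.90% and 6.87% of all peaks in KO, with 5.70% and 5.69% for WT and 5.43% and 5.49% in del-cIDR. The cause of the chromosome-wide difference was not tested.

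By summit height the locus stood higher in KO than in WT, as its chromosome did. By the deposited fold it did not: its median percentile among the regions called in all libraries was 30.1 ± 3.20 in WT, 27.3 ± 1.30 for the KO and 26.0 ± 2.97 for the del-cIDR libraries (SD, n = 2 each), and the libraries of each mutant overlapped those of WT. Relative to the same autosomes its median log2 height was 0.61 ± 0.04 in WT, 0.93 ± 0.12 for the KO and 0.65 ± 0.03 for the del-cIDR libraries (SD, n = 2 each). KO was 0.32 higher than WT (exact permutation p = 0.333) and del-cIDR 0.04 higher (p = 0.667, exact permutation test). On this scale 31 of the 35 regions had a higher mean in KO than in WT, as had 4872 of 5870 on the rest of the chromosome, and 18 of 35 had a higher mean in del-cIDR, against 2334 of 5870.

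Relative to chromosome 6, the locus differed between KO and WT by less than the spread of the libraries in log2 height, a scale added for this comparison after the data had been seen, and by more than that spread in fold percentile, given further on. The median log2 height was 0.70 ± 0.05 in WT, 0.64 ± 0.15 for the KO and 0.87 ± 0.06 for the del-cIDR libraries (SD, n = 2 each). KO minus WT was -0.06 (exact permutation p = 1) and changed sign with the library left out, from -0.11 without KO replicate 1 to 0.08 without KO replicate 2. Region by region, the median KO minus WT difference was 0.05, of the opposite sign, against 0.07 for chromosome 6. del-cIDR minus WT was 0.17 (exact permutation p = 0.333), and both del-cIDR libraries were above both WT libraries. It was 0.07 without del-cIDR replicate 1. The median of the single differences was 0.16 in del-cIDR, against 0.06 for chromosome 6. Among the 258 windows of chromosome 6 with at least 10 such regions, the locus included, 154 had a median KO minus WT difference at least as high as the locus, and 45 had one at least as high in del-cIDR.

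Single regions of the locus differed from WT in both directions. KO minus WT ran from -0.68 to 0.61 on the log2 scale relative to chromosome 6, with quartiles of -0.20 and 0.21 against -0.24 and 0.33 for the chromosome, and 18 of 35 regions had the higher mean in KO. del-cIDR minus WT ran from -0.33 to 0.55, and 24 of 35 regions had the higher mean in del-cIDR, against 58.6% on the rest of the chromosome. The 2 libraries of a genotype differed at a region of the locus by a median of 0.18 in WT, 0.20 in KO and 0.17 in del-cIDR, close to the 0.19, 0.19 and 0.20 of the chromosome.

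Both KO libraries were above both WT libraries in 8 regions, where the share over the other chromosome 6 regions was 35.3%, and below in 8, where it was 24.4%. Both del-cIDR libraries were above in 12 regions, against 29.3%, and below in 3, against 17.3%. With 1 library left out in turn these counts ran from 9 to 17 and from 8 to 12 for KO above and below, and from 11 to 19 and from 3 to 9 for del-cIDR. Leaving out a library of a compared genotype loosens the rule, and the chromosome 6 shares then rose too. Across these omissions the shares ran from 34.2% to 47.3% and from 22.9% to 34.7% for KO above and below. For del-cIDR they ran from 26.4% to 42.9% and from 18.4% to 32.9%. Both mutants were above WT in 5 regions, which on the chromosome made up 15.7%, and both below in 2, against 8.09%. The regions with both KO libraries below and both del-cIDR libraries above WT numbered 3, against 4.36%, and none had the opposite pattern, against 3.53%.

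By the percentile of the deposited fold relative to chromosome 6, both KO libraries were above both WT libraries in 4 regions (chromosome share 20.0%) and below in 17 (35.4%). del-cIDR was above in 9 (25.6%) and below in 5 (17.2%). The median fold percentile of chromosome 6 was 47.7 ± 0.16 in WT, 53.8 ± 0.40 for the KO and 45.9 ± 0.51 for the del-cIDR libraries (SD, n = 2 each), a difference from WT of 6.14 points in KO and of -1.81 in del-cIDR, each with an exact permutation p of 0.333. Ranked in each library's own full list instead, the differences of these regions were -0.89 points in KO and -7.05 in del-cIDR, so both mutants were then below WT. The full lists are of unlike length, longest in WT, so ranks in them are not on 1 scale across libraries. Relative to the chromosome 6 median among regions called in all libraries, the locus stood at -17.6 ± 3.36 points in WT, -26.6 ± 0.91 in KO and -19.9 ± 3.48 in del-cIDR (SD, n = 2 each). KO minus WT was -8.94 points (exact permutation p = 0.333), with both KO libraries below both WT libraries, and del-cIDR minus WT was -2.25 (exact permutation p = 0.667), opposite in sign to its log2 height. Without taking off the shift of chromosome 6 the KO value was -2.71 points (exact permutation p = 0.667) and the del-cIDR value -3.98 (exact permutation p = 0.667). With any single library left out the KO value stayed between -11.2 and -4.40, while the del-cIDR value turned to 2.77 without del-cIDR replicate 2. Some regions at the low end of the percentile scale moved little on it. Others did not: at chr6:122579269-122579461 the percentiles were 9.48 and 16.2 in WT and 34.7 and 42.7 in KO. Where a low region rose little, taking off the KO shift of chromosome 6 can place it below WT although it rose. At chr6:122738060-122738280 the percentiles were 2.18 and 1.84 in WT and 2.92 and 4.86 in KO, yet KO minus WT was -4.25 points. Ranked among chromosome 6 regions only, added after the data had been seen, KO was above WT in 6 regions and below in 9. On the same ranking del-cIDR was above WT in 7 and below in 7. The chromosome 6 shares on this ranking were not computed, so these counts cannot be set against them. The locus shift in KO on this ranking was -8.45 points. Because points can lie below WT where a region rose, the log2 heights are given beside these points throughout.

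**Figure D3:**
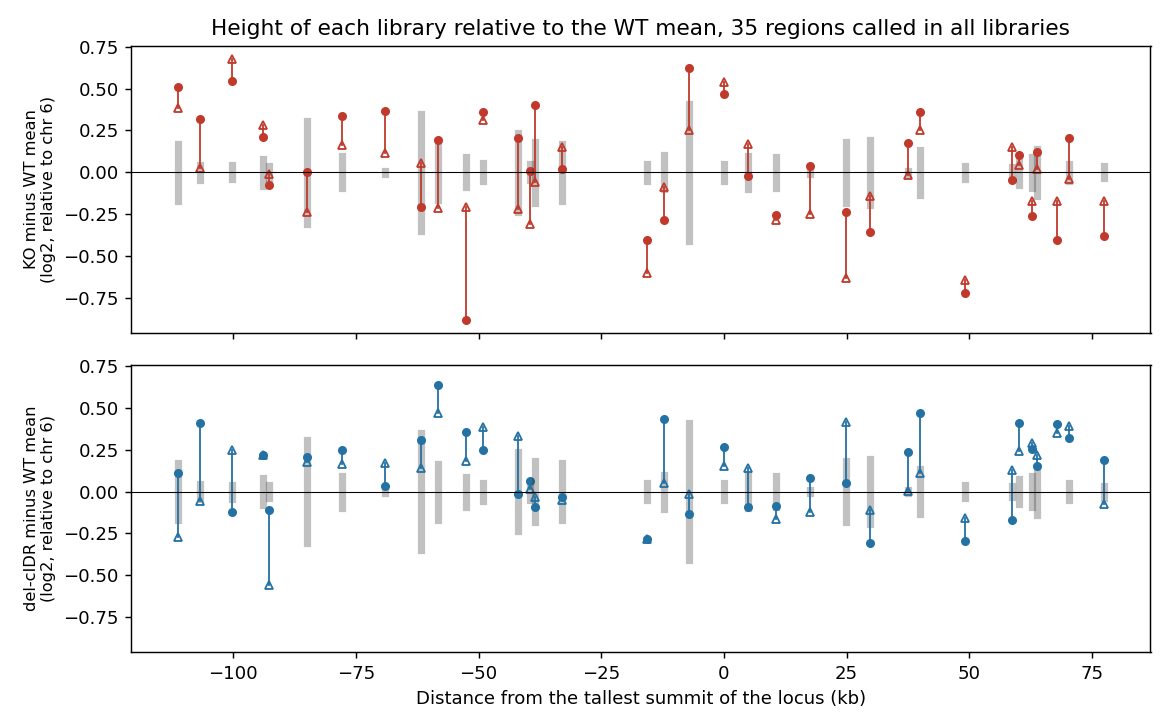
Log2 height relative to chromosome 6 of each KO (top) and del-cIDR (bottom) library minus the WT mean, for the 35 regions called in all libraries, against distance in kb from the tallest summit; circles are replicate 1, triangles replicate 2, a line joins the libraries of a region, and the grey bar spans the WT libraries. KO points lie on both sides of 0 along the locus, and del-cIDR points lie above 0 at 6 of the 7 regions of the last stretch by their mean.

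**Figure D4:**
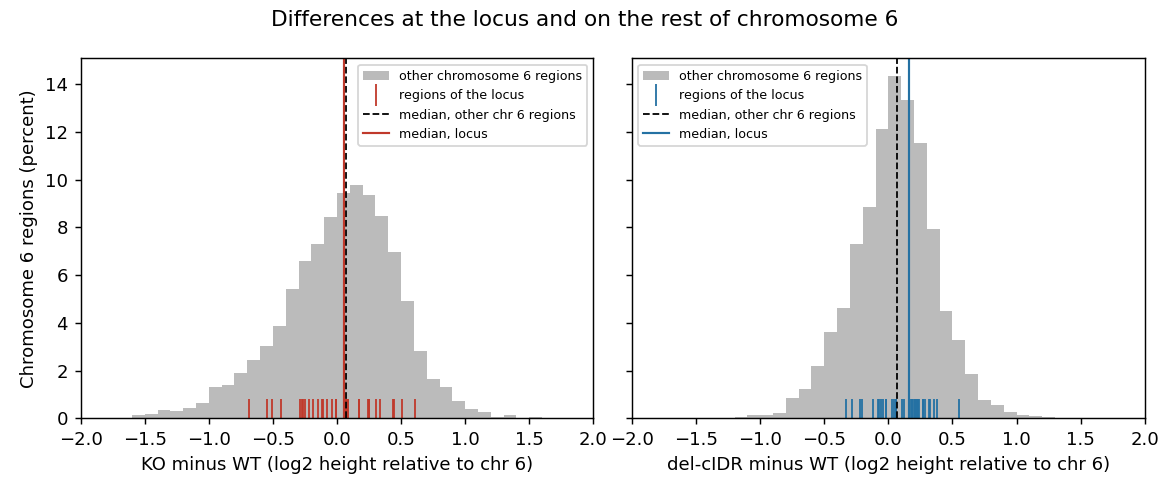
Histogram (percent of regions per bin) of the mutant minus WT difference in log2 height relative to chromosome 6 over the other 5870 regions, with a coloured tick for each of the 35 regions of the locus, KO left and del-cIDR right. The median of the locus is 0.05 against 0.07 for KO and 0.16 against 0.06 for del-cIDR.

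The tallest region, chr6:122679132-122680212 (1081 bases), stood above WT in both mutants by height relative to chromosome 6. Its summit held 256 and 270 tags in WT, against 456 and 371 in the KO and 267 and 247 in the del-cIDR libraries. In raw tags the KO libraries were high and del-cIDR overlapped WT. Relative to chromosome 6 its log2 height was 3.04 ± 0.07 in WT, 3.55 ± 0.05 for the KO and 3.25 ± 0.08 for the del-cIDR libraries (SD, n = 2 each). Both libraries of each mutant were above both WT libraries, by 0.50 in KO and 0.21 in del-cIDR, and these differences ranked at percentiles 88.0 and 70.1 of all such differences on chromosome 6. Relative to the reference autosomes, where chromosome 6 itself stood lower in del-cIDR than in WT, the KO difference was 0.89 and the del-cIDR difference 0.07. Its fold stood at percentile 78.7 and 75.3 of the own list in WT, against 84.4 and 86.3 in the KO and 77.4 and 70.4 in the del-cIDR libraries. The local background here was 20.8 and 22.0 tags in WT, against 30.2 and 24.4 in the KO and 21.0 and 22.6 in the del-cIDR libraries. The background was thus also higher in both KO libraries than in both WT libraries.

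The second region of this centre, chr6:122684099-122684580, lay 4.86 kb away and did not share that pattern. It held 152 and 150 tags in WT, against 186 and 165 in the KO and 120 and 141 in the del-cIDR libraries. Relative to chromosome 6 KO minus WT was 0.07 and del-cIDR minus WT 0.03, and the libraries of each mutant overlapped those of WT. It ranked high by height (mean percentile 95.7) and low by fold (18.7).

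Other tall regions lay on both sides of this centre. At chr6:122743139-122743699 the summit held 162 and 151 tags in WT, against 213 and 154 in the KO and 147 and 154 in the del-cIDR libraries. Relative to chromosome 6 KO minus WT was 0.07 and del-cIDR minus WT was 0.19. At chr6:122747182-122747857 the summit held 121 and 137 tags in WT, against 122 and 111 in the KO and 144 and 139 in the del-cIDR libraries. Relative to chromosome 6 the mutants parted there, KO at -0.29 below WT and del-cIDR at 0.38 above it, with no overlap of libraries in either case. Relative to the reference autosomes both were above WT, by 0.09 and 0.24. At chr6:122584711-122585907 the summit held 101 and 128 tags in WT, against 165 and 134 in the KO and 112 and 112 in the del-cIDR libraries. Its summit was called at the same base in all 6 libraries.

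The 5 regions with the highest mean fold percentile, named by a rule, stood out most over their local background, which is what the rule used. At chr6:122601346-122601999, the first of them, the heights were 146 and 145 tags in WT, against 230 and 158 in the KO and 146 and 138 in the del-cIDR libraries, and the own-list percentiles 98.1 and 94.9 in WT, against 95.8 and 95.2 in the KO and 97.3 and 97.0 in the del-cIDR libraries. Relative to chromosome 6 the log2 height was 0.25 higher in KO and 0.21 higher in del-cIDR, with both libraries of each mutant above WT. At chr6:122756773-122757341 the heights were 114 and 123 in WT, against 114 and 102 in the KO and 114 and 95 in the del-cIDR libraries. Both KO libraries were below WT there (-0.28) and del-cIDR overlapped it (0.06), and the summits of all 6 libraries lay within 1 base of each other.

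The third of these, chr6:122646263-122646833, held 105 and 94 tags in WT, against 126 and 107 in the KO and 82 and 81 in the del-cIDR libraries, with differences of 0.08 in KO and -0.04 in del-cIDR that lay inside the spread of the libraries. The fourth, chr6:122610254-122610771, held 55 and 63 tags in WT, against 95 and 62 in the KO and 51 and 56 in the del-cIDR libraries, with both libraries of each mutant above WT, by 0.24 and 0.10. The fifth, chr6:122567944-122568596, held 95 and 85 tags in WT, against 160 and 114 in the KO and 82 and 63 in the del-cIDR libraries, with both KO libraries above WT (0.45) and del-cIDR overlapping it (-0.08). By fold percentile relative to chromosome 6, KO minus WT was below 0 in all 5, from -16.2 to -2.46 points, so its sign was the opposite of that by log2 height at the first, the third, the fourth and the fifth. Without WT replicate 1 the points turned to 3.50 at the third and 3.46 at the fifth, and without KO replicate 1 to 0.55 at the third. By the rule that named them, their mean fold percentiles ran from 83.0 to 94.0, where the median of the locus was 25.6.

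The single largest KO difference in either direction lay at a low region. The next highest above WT did not. They were 0.50 at the tallest region (mean of 311.2 tags) and 0.45 at chr6:122567944-122568596 (mean of 99.8 tags). At chr6:122579269-122579461 the heights were 20 and 24 tags in WT, against 40 and 34 in the KO and 17 and 22 in the del-cIDR libraries, and KO was 0.61 above WT relative to chromosome 6 with no overlap. At chr6:122728213-122728945 they were 14 and 15 in WT, against 11 and 9 in the KO and 10 and 11 in the del-cIDR libraries, and KO was at -0.68 below WT with no overlap. The 95% exact Poisson intervals of 14 tags (7.65 to 23.5) and of 9 tags (4.12 to 17.1) overlap. At chr6:122579269-122579461 those of 24 tags in WT replicate 2 (15.4 to 35.7) and 34 tags in KO replicate 2 (23.5 to 47.5) overlap too. Counting error in single libraries was thus wide at both regions. The intervals are of raw tags, so their overlap is not a test of either difference.

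At chr6:122626678-122627153 the heights were 25 and 25 tags in WT, against 17 and 21 in the KO and 27 and 24 in the del-cIDR libraries, with KO at -0.54 and del-cIDR at 0.27. At chr6:122663573-122664077 they were 35 and 37 in WT, against 34 and 23 in the KO and 25 and 25 in the del-cIDR libraries, and both mutants were below WT, at -0.50 and -0.28. These regions had the next lowest KO differences. They, chr6:122579269-122579461 and chr6:122728213-122728945 were named as extremes of the locus after their values were seen. In del-cIDR the extremes were chr6:122621060-122621693, with 35 and 50 tags in WT, against 60 and 35 in the KO and 55 and 49 in the del-cIDR libraries, which was 0.55 above WT, and chr6:122586406-122587101, with 69 and 74 in WT, against 85 and 69 in the KO and 56 and 41 in the del-cIDR libraries, which was at -0.33 below it.

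The regions fell into 3 stretches separated by gaps of at least 8000 bases, a division made after seeing their positions. The longest gap, of 11213 bases, ran from 122652359 to 122663573, while the median gap was 2129.5 bases. In each stretch the regions called in all libraries were counted as above or below where both mutant libraries lay beyond both WT libraries in log2 height relative to chromosome 6; the shares on the rest of the chromosome were 35.3% above and 24.4% below for KO, and 29.3% and 17.3% for del-cIDR. The first stretch, chr6:122563938-122652359, held 28 regions, of which 16 were called in all libraries. Both KO libraries were above in 6 of these and below in 1 (median difference 0.13, mean higher in KO in 9), and both del-cIDR libraries were above in 6 and below in 1 (median 0.17). The second, chr6:122663573-122728945, which contains the tallest summit, held 24 regions, of which 12 were called in all libraries. Both KO libraries were above in 2 and below in 4 (median -0.15, mean higher in KO in 5), and both del-cIDR libraries were above in 1 and below in 2 (median 0.00). The third, chr6:122738060-122759614, held 9 regions, of which 7 were called in all libraries, with the highest median height (108.5 tags). Both KO libraries were above in 0 and below in 3 (median 0.05, mean higher in KO in 4), and both del-cIDR libraries were above in 5 and below in 0 (median 0.27). Differences between stretches were not tested.

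Regions gained or lost by whole genotypes were few at the locus, as they were in the whole series and on chromosome 6. Whether the counts differ from the shares given here was not tested. One region was called in both WT and neither KO library, where such regions made up 7.22% of all regions of the series, and none in both KO and neither WT library, where they made up 1.89%. 2 regions were called in both WT and neither del-cIDR library (5.33%), and 1 in both del-cIDR and neither WT library (0.931%). 2 were called in both KO and neither del-cIDR library (3.50%) and 1 in both del-cIDR and neither KO library (3.59%). On chromosome 6 alone, these patterns made up 3.95% (WT, not KO), 4.09% (KO, not WT), 5.68% (WT, not del-cIDR), 0.586% (del-cIDR, not WT), 7.55% (KO, not del-cIDR) and 1.54% (del-cIDR, not KO) of its 15876 regions, so regions in KO and not in WT were there about as frequent as the reverse. The counts at the locus rest on single libraries, and without KO replicate 2 the count of regions in KO and not in WT was 5. That count asks for a call in only 1 KO library, a looser rule than that of the shares above. Its share over all regions was not computed, so it cannot be set against them.

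The region lost in both mutants, chr6:122688630-122688760 (131 bases), held 20 and 25 tags in WT, at own-list percentiles of 0.014 and 0.18, so it was among the weakest calls by fold of both WT lists. The other region missing in del-cIDR, chr6:122685892-122686058 (167 bases), held 38 and 40 tags in WT and 46 in KO replicate 1. The region gained in del-cIDR, chr6:122673295-122673495, held 11 and 12 tags there. Those in KO and not in del-cIDR were chr6:122705129-122705576, with 14 and 14 tags in KO and 8 in WT replicate 1, and chr6:122759387-122759614, with 34 and 31 in KO and 25 in WT replicate 1. None of these 5 regions reached percentile 25 of its list by fold.

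Summit positions were shared between the genotypes as closely as on the rest of the chromosome. Over the regions called in all libraries, the range of summit positions across the 6 libraries had a median of 71 bases, against 69 for chromosome 6. It was at most 50 bases in 12 of 35 regions (34.3%, against 32.5%) and over 200 bases in 2 (5.71%, against 13.5%). These were chr6:122630092-122630686, where the summit ranged over 476 bases and the height was at most 16 tags, and chr6:122703333-122704534, where it ranged over 1008 bases and the height was at most 18 tags. The regions were of like width, with a median of 581 bases against 550.5.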

How the data were processed

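The files were peak lists called with MACS2 on GRCm39, per the submitters' processing notes, which also name fastp, BWA, SAMtools, Picard and featureCounts; their versions, and any shift of cut sites, are not given. Peaks were called per library. The authors deposited for each peak a score, a fold ratio over local background (here ranked into percentiles), a −log10 p-value, a −log10 q-value (lowest 1.30) and a summit offset. The deposited fold and p-value were solved for the height in whole tags, within 0.1 for 100% of peaks, and tested on simulated data. Heights were divided by the median of chromosome 6 or of 16 autosomes. Python 3.11.15, numpy 2.4.6, pandas 2.3.3, SciPy 1.17.1 and matplotlib 3.10.9 were used. Regions were named as the 5 with the highest mean fold percentile and those gained or lost by a genotype; others were named after their values were seen. The parts of this rule that need gene starts, the marker and network gene lists and motif searches in peaks were not used, because the annotation is of another build (GRCm38.p6). The members and lists were chosen with earlier results of these data known. Alternatives were a stricter q-value, equal list lengths, other ranking values and references, another peak overlap, and leaving out each library.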

Additional observations from a re-analysis of the deposited data

Results flagged for a closer look

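The mutants differed from WT in opposite directions at chromosome 6 by fold percentile and at 3 locus regions by height relative to chromosome 6. The difference between the mutants was not tested. The median fold percentile of chromosome 6 was higher than WT in both KO libraries and lower in both del-cIDR libraries, and KO stood 7.95 points above del-cIDR. This opposite direction did not hold in each library's own full list, where KO minus WT was -0.89 points and del-cIDR minus WT -7.05. Those lists are of unlike length, longest in WT, so ranks in them are not on 1 scale across libraries. In the 3 regions both KO libraries were below and both del-cIDR libraries above both WT libraries on the log2 scale relative to chromosome 6. Such regions made up 4.36% of the rest of the chromosome. KO minus del-cIDR was -0.81 at chr6:122626678-122627153, -0.49 at chr6:122741466-122742449 and -0.67 at chr6:122747182-122747857. At the second of these the values were 1.68 and 1.87 in WT, against 1.51 and 1.60 in the KO and 2.03 and 2.07 in the del-cIDR libraries. Relative to the reference autosomes, KO and del-cIDR minus WT were -0.16 and 0.13 at the first region. They were 0.16 and 0.14 at the second and 0.09 and 0.24 at the third, so both mutants were above WT there. With 2 libraries per genotype the test for a single outlying library was not run.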

How the results depend on the processing

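With −log10 q of at least 5, the regions in WT and not KO numbered 0, in WT and not del-cIDR 1, in del-cIDR and not WT 0, and in del-cIDR and not KO 0, and the del-cIDR shift of the locus turned to 4.51 points. With equal list lengths the counts were 0 (WT, not KO), 1 (KO, not WT) and 1 (WT, not del-cIDR). The del-cIDR shift also reversed when ranked by height (4.33 points), by −log10 p (7.49 points) or as log2 height (0.17; for both mutants this scale was chosen after seeing the data). In each full list the shift of chromosome 6 was -0.89 points in KO and -7.05 in del-cIDR. Against all chromosomes the locus shift was -2.71 points in KO. By log2 height KO was above WT in 8 regions and below in 8, and del-cIDR below in 3; the KO differences at chr6:122601346-122601999 and chr6:122610254-122610771 were then 0.25 and 0.24, of opposite sign to the points. Percentiles among chromosome 6 regions, added after seeing the data, gave 9 regions with KO below WT. The chromosome 6 share on that ranking was not computed. The cause was not tested. Leaving out 1 library gave ranges of 5.82 to 6.43 points (chromosome 6, KO), -1.74 to -1.41 (del-cIDR), -11.2 to -4.40 (locus, KO) and -4.94 to 2.77 (locus, del-cIDR). The count of regions called in all libraries ran from 35 to 37. Regions of WT ran from 1 to 5 where absent in KO and from 2 to 6 where absent in del-cIDR; those of KO from 0 to 5 where absent in WT and from 2 to 6 where absent in del-cIDR; those of del-cIDR from 1 to 3 where absent in WT and from 1 to 4 where absent in KO. By points, KO was above WT in 4 to 8 regions and below in 18 to 24, and del-cIDR above in 8 to 16 and below in 5 to 14. Leaving out a library of a compared genotype loosens the rule for all these counts, and matching shares of all regions were not computed. The promoter alternative was not run, for want of gene starts on the build of the peaks. No paired analysis was possible because the comparisons come from no fit across features and nothing says that equal replicate numbers pair libraries. Low regions near 10 tags limit what can be seen.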
